A study of Mus musculus with 9 samples.

Results

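Regulatory T cell identity genes are described here in CD4+ T cells taken on day 9 of experimental autoimmune encephalomyelitis (EAE), an induced autoimmune disease of the mouse nervous system that serves as a model of multiple sclerosis. The 10 genes are Foxp3, Ikzf2, Ikzf4, Nrp1, Lrrc32, Gpr83, Capg, Il10, Ebi3 and Klrg1. They were chosen by symbol from a count table of 39253 genes, and all 10 were found in it. The samples comprised 5 libraries labelled ERα KO (knockout of estrogen receptor alpha, encoded by Esr1) and 4 labelled wildtype, all from mice with EAE. Batch 1 held knockout replicates 1, 2 and 3 and wildtype replicates 1 and 2, and batch 2 held knockout replicates 4 and 5 and wildtype replicates 3 and 4. The title of the series names ERα signalling in dendritic cells, but no label gives the cells from which the receptor was missing, nor a Cre driver. Neither strain, sex, age, tissue of origin nor pooling of animals is stated. The comparison therefore asks only whether transcripts of these genes differed between CD4+ T cell samples carrying the 2 genotype labels.

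Regulatory T cells are CD4+ T cells that restrain other immune cells, and in EAE they limit the inflammation of the nervous system. The transcription factor Foxp3 sets and keeps their identity, and Helios (Ikzf2) and Eos (Ikzf4), of the Ikaros family, act with it. At the surface, neuropilin-1 (Nrp1) binds semaphorins, and GARP (Lrrc32) holds latent TGF-β until an integrin releases it. Interleukin 10 (Il10) and the cytokines that contain the Ebi3 subunit are among the secreted products by which these cells suppress responses.

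No identity gene passed the test of knockout against wildtype, over both batches or within either. Few genes of any kind did: 0.00451% of all genes passed over both batches, 0.126% in batch 1 and 0% in batch 2. Over both batches 8 of the 10 had a positive log2 fold change, where 51.4% of all genes did, with a median of 0.34 against 0.0090 for all 22197 genes tested (edgeR's quasi-likelihood test, adjusted p under 0.05 as the threshold). The labels do not say whether libraries came from separate animals, so p-values measure only the spread between these samples, which may be technical. In batch 2, Lrrc32, Gpr83, Ikzf4 and Foxp3 were above the wildtype range in both knockout libraries, as were 19.6% of all genes, and Capg was below it, as were 20.5%. In batch 1 all 10 genes overlapped between the genotypes, where 10.9% of all genes lay above the wildtype range and 5.19% below it. A single library, knockout replicate 2, was the highest of batch 1 for 8 of the 10. The share of all genes for which it was highest was not counted. The direction of the group in each batch depended on a single knockout library, as described further on.

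The libraries of the batches differed in depth and background. Batch 1 totals lay between 4926347 and 11296593 estimated counts, and those of batch 2 between 45013017 and 69844721. Chemosensory receptor genes (1514 olfactory, vomeronasal and taste receptors), which T cells are not known to use, made up 0.0577% to 0.256% of batch 1 counts but 0.00258% to 0.0037% of batch 2 counts. Cd4 was at 925 to 1321 CPM (a gene's counts scaled to a common library total) in knockout and 1111 to 1308 CPM in wildtype libraries, so this defining marker was present in all 9. Esr1 was at 0.143 and 0.256 CPM in knockout and 1.45 and 1.69 CPM in wildtype libraries of batch 2. Batch 1 had 6.31 to 13 CPM of it in knockout and 4.87 and 16.2 CPM in wildtype libraries, so it does not check those labels. Knockout replicate 3 stood apart in batch 1, with 30.4 CPM of Xist against 1745 to 2680 CPM in the other 4 libraries and the only Ddx3y counts of that batch, at 55.4 CPM. All 4 libraries of batch 2 had 0 to 0.289 CPM of Xist and 93.6 to 107 CPM of Ddx3y, so these sex-linked transcripts move with batch. Within batch 1 they were also uneven between genotypes, since the only library with Ddx3y counts was a knockout. The part of sex-linked transcripts in any difference between batches, or between genotypes in batch 1, was not tested. Wildtype replicate 3 stood apart in batch 2, with 434 CPM of the erythroid gene Alas2 against 17 to 23.2 CPM in the other 3.

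Promoters of Foxp3 and Gpr83 are shown because, of the genes above the wildtype range in batch 2, these had a promoter window, and because the deleted gene encodes a nuclear receptor. RefSeq windows of build GRCm38.p6 cover 250 bases before to 50 bases after an annotated start, and 5 of the 10 genes had one. Capitals mark matches on either strand to the nuclear receptor half-site GGTCA or to the TATA box TATAAA.
Foxp3 first start, chrX:7579426-7579725, plus strand: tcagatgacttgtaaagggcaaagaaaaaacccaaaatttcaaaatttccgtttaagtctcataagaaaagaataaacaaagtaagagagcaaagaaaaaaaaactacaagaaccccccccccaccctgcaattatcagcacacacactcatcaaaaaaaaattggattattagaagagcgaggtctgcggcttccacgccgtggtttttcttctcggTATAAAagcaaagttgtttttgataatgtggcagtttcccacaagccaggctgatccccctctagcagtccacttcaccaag
Foxp3 second start, chrX:7580233-7580532, plus strand: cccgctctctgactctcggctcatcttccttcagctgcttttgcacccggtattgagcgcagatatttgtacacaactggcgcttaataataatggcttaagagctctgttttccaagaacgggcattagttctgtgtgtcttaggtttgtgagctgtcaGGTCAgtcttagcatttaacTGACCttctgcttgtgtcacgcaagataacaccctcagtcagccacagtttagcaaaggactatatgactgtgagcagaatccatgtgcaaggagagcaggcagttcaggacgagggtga
Gpr83, chr9:14859960-14860259, plus strand: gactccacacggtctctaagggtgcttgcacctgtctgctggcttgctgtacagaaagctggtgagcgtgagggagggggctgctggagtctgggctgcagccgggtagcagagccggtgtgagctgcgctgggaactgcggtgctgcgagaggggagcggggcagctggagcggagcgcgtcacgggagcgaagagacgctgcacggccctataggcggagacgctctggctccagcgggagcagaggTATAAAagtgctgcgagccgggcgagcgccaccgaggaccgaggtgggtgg
The second Foxp3 window held 2 half-sites, 1 on each strand, and the Gpr83 window held 0. The windows of Capg and Nrp1, not shown, held 1 half-site each. A half-site is present in 40.5% and a TATAAA match in 13.6% of 32851 promoter windows of the same length. The full estrogen response element, GGTCA and TGACC set 3 bases apart and so overlapping the half-site motif, found in 0.0700% of windows, and the Runx motif TGTGGT, found in 16.8%, matched in 0 of the 6 windows of the identity genes. These matches describe the letters of the windows and say nothing of binding.

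Foxp3 had the highest level per length of the 10 genes, with a median of 52.9 CPM per kilobase of exon over the 9 libraries. Capg followed at 41.5 and Nrp1 at 22.5 CPM per kilobase. Ikzf2 (11.8), Gpr83 (9.57), Lrrc32 (8.4), Klrg1 (7.61), Ikzf4 (5.68) and Ebi3 (4.73) came next in medians on that scale. The ranges of neighbours in this order overlapped, from 33.5 to 85.1 for Foxp3 and 15.1 to 76.7 for Capg at the top. Il10 was lowest, at 0.753 CPM per kilobase, with a range of 0 to 2.01 that overlapped that of Ebi3 only at 1.95 and above. Exon lengths came from the GENCODE M21 annotation of GRCm38, since the table carries none.

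Foxp3, the lineage factor, was at 149, 280.4 and 142 CPM in the batch 1 knockout libraries, against 137 and 170.3 CPM in wildtype. The batch 2 knockout libraries had 294 and 349 CPM, against 217 and 290.2 CPM in wildtype. The groups overlapped in batch 1, where knockout replicate 2 alone lay above both wildtype libraries. In batch 2 the lower knockout library exceeded the higher wildtype library by a few CPM. The log2 fold change of Foxp3 was 0.22 ± 0.38 (SE) in batch 1, 0.35 ± 0.15 in batch 2 and 0.31 ± 0.21 over both, and none passed (edgeR adjusted p = 1.00, 0.657 and 1.00). Without wildtype replicate 4, Foxp3 passed in batch 2 at 0.53 (edgeR adjusted p = 0.0433), in a fit that takes its spread from the knockout alone and called 5.21% of all genes. Without knockout replicate 2, the batch 1 value turned to -0.25 and the value over both batches was 0.11. Without wildtype replicate 3 the value over both batches was 0.18. In bulk RNA a different share of regulatory T cells and a different amount of RNA per cell cannot be told apart, and this holds for every gene below.

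**Figure D1:**
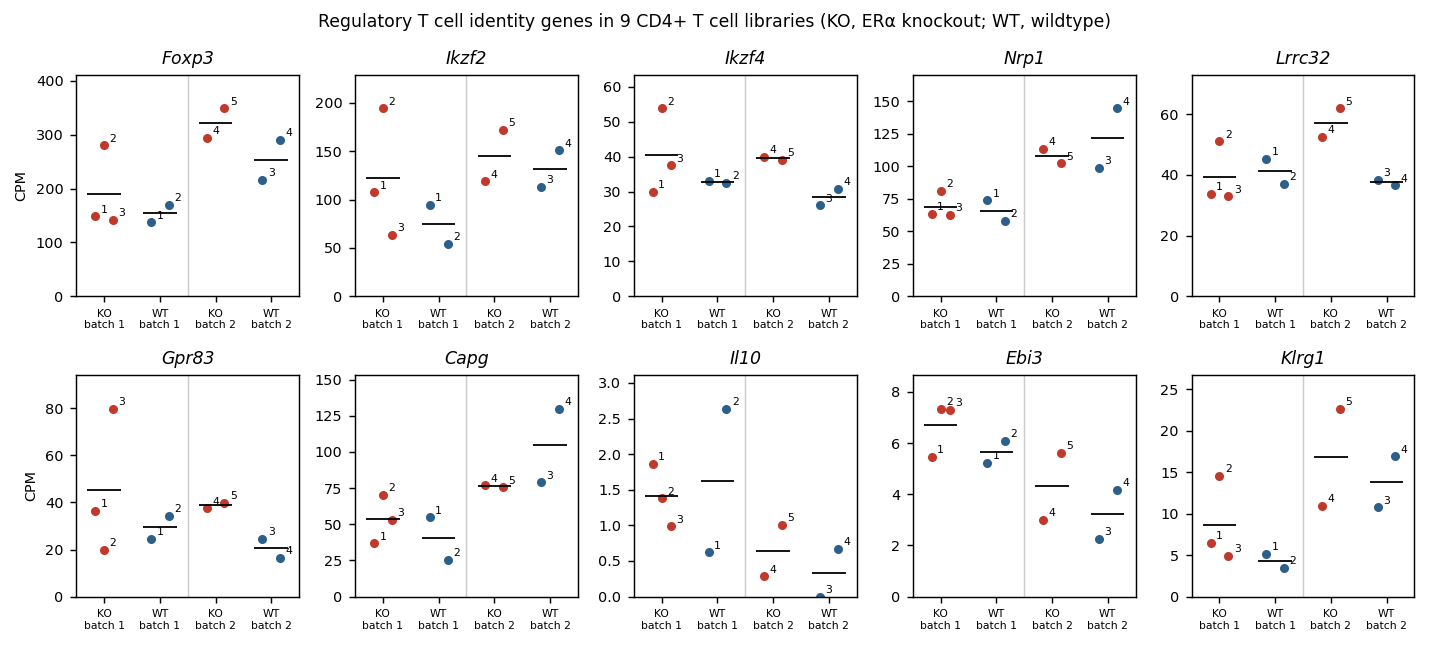
CPM of each of the 10 genes (vertical axis, linear from 0) in the 9 libraries, as points numbered by replicate in knockout (red) and wildtype (blue) libraries of each batch, with bars at the group mean. Knockout replicate 2 sits on top of batch 1 for 8 genes, while Lrrc32 at 52.6 and 61.9 CPM in batch 2 knockout libraries lies clear of wildtype at 38.5 and 36.6 CPM.

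Relative to Cd4 in the same library, Foxp3 had 16.1, 29.9 and 13.7 counts per 100 Cd4 counts in batch 1 knockout libraries, against 12.0 and 15.3 in wildtype. In batch 2 the values were 22.5 and 26.4 in knockout libraries, against 18.8 and 22.2 in wildtype. The ratio was higher in knockout by 0.37 on the log2 scale after adjustment for batch. An exact two-sided permutation test within batches gave p = 0.183, where the smallest p that its 60 arrangements allow is 0.0167. With Cd3e as the denominator the difference was 0.29 (exact permutation p = 0.267). Without knockout replicate 2 the difference from the Cd4 ratio was 0.19. The denominators also differed between genotypes. In batch 1 Cd4 was at 925 to 1033 CPM in knockout libraries, against 1143 and 1111 CPM in wildtype, and overlapped in batch 2. Cd3e was at 1071 to 1079 CPM in batch 1 knockout libraries, against 1230 and 1235 CPM in wildtype. In batch 2 Cd3e was at 1471 and 1522 CPM in knockout libraries, against 1266 and 1285 CPM in wildtype. Their part in the ratios was not tested.

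Ikzf2, which encodes Helios, was at 108, 194 and 63.5 CPM in batch 1 knockout libraries, against 94.5 and 54 CPM in wildtype. Batch 2 gave 119 and 172 CPM in knockout libraries, against 113 and 151 CPM in wildtype. The genotypes overlapped in both batches, and knockout libraries of batch 1 held values both above and between those of wildtype. Its log2 fold change over both batches was 0.43 ± 0.34 (edgeR adjusted p = 1.00). It was 0.11 without wildtype replicate 2 and 0.15 without knockout replicate 2.

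Ikzf4, which encodes Eos, a corepressor partner of Foxp3, was at 29.9, 53.8 and 37.5 CPM in batch 1 knockout libraries, against 33.1 and 32.5 CPM in wildtype. Batch 2 values were 39.9 and 39.1 CPM in knockout libraries, against 26 and 30.7 CPM in wildtype. The groups separated in batch 2, and in batch 1 knockout replicate 1 lay below both wildtype libraries. The log2 fold change of Ikzf4 was 0.17 ± 0.37 in batch 1 and 0.49 ± 0.13 in batch 2 (edgeR adjusted p = 1.00 and 0.618). Over both batches it was 0.36 ± 0.17 (edgeR adjusted p = 1.00), the smallest unadjusted p among the 10 genes. At an unadjusted p under 0.05 none of the 10 stood in that fit, where 2.36% of all genes did.

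Among the surface molecules, Lrrc32 (GARP) was at 33.8, 51.1 and 32.9 CPM in batch 1 knockout libraries, against 45.4 and 37.1 CPM in wildtype. The batch 2 knockout libraries had 52.6 and 61.9 CPM, against 38.5 and 36.6 CPM in wildtype. The direction thus differed between batches: 2 of the 3 knockout libraries of batch 1 lay below both wildtype libraries, and both knockout libraries of batch 2 lay above. The log2 fold change was -0.21 ± 0.37 in batch 1 (edgeR adjusted p = 1.00) and 0.61 ± 0.14 in batch 2 (edgeR adjusted p = 0.618). The interaction of batch and genotype for Lrrc32 was 0.71 ± 0.33 and did not pass (edgeR adjusted p = 0.591). DESeq2 called Lrrc32 in batch 2 at 0.61 (adjusted p = 0.0374), where it called 2.07% of 15910 genes. Platelets also carry GARP, and the 7 platelet markers summed to 2.75 and 1.76 CPM in knockout libraries of batch 2, against 10.1 and 1.98 CPM in wildtype.

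Gpr83, a G protein-coupled receptor enriched in mouse regulatory T cells, was at 36.6, 20 and 79.9 CPM in batch 1 knockout libraries, against 24.4 and 34.3 CPM in wildtype. Batch 2 gave 37.5 and 40 CPM in knockout libraries, against 24.6 and 16.4 CPM in wildtype. Knockout libraries held both the highest and the lowest value of batch 1, and the groups separated in batch 2. The log2 fold change of Gpr83 was 0.41 ± 0.38 in batch 1, 0.91 ± 0.24 in batch 2 and 0.72 ± 0.33 over both (edgeR adjusted p = 1.00, 0.618 and 1.00). Gpr83 passed in batch 2 with DESeq2 at 0.91 (adjusted p = 0.0494), and with edgeR at 1.28 without wildtype replicate 3 (adjusted p = 0.0118), leaving a lone wildtype library in a fit that called 1.62% of all genes. Without knockout replicate 3, the library with 79.9 CPM and the only Ddx3y counts of batch 1, the batch 1 value turned to -0.072.

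Nrp1 was at 63.2, 81 and 62.7 CPM in batch 1 knockout libraries, against 73.8 and 57.9 CPM in wildtype. Batch 2 values were 113 and 102 CPM in knockout libraries, against 98.9 and 145 CPM in wildtype. The genotypes overlapped in both batches, and the log2 fold change over both was -0.07 ± 0.15 (edgeR adjusted p = 1.00). Nrp1 is also made by myeloid, plasmacytoid dendritic and endothelial cells.

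Capg, which caps actin filament ends and is abundant in macrophages, was at 36.8, 70.4 and 53.3 CPM in batch 1 knockout libraries, against 54.8 and 25.6 CPM in wildtype. The batch 2 knockout libraries had 77 and 75.6 CPM, against 79.1 and 129.9 CPM in wildtype. Capg was the one identity gene with both knockout libraries below both wildtype libraries in batch 2, and the gap to wildtype replicate 3 was small. Its log2 fold change was 0.21 ± 0.39 in batch 1 and -0.44 ± 0.22 in batch 2 (edgeR adjusted p = 1.00 and 0.694). It passed without wildtype replicate 3, at -0.73 (edgeR adjusted p = 0.0148), where wildtype replicate 4 is assumed to vary like the knockout. Summed over 12 genes, the monocyte and macrophage markers stood at 188 and 256 CPM in knockout libraries of batch 2, against 265 and 460.4 CPM in wildtype. C1qa, a macrophage complement gene, was at 8.02 and 8.95 CPM in those knockout libraries, against 9.58 and 22.1 CPM in wildtype, the last value in wildtype replicate 4. All 12 markers were detected in each of the 9 libraries, and their part in the Capg values was not tested.

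Klrg1, an inhibitory cadherin receptor of effector regulatory T cells and of NK cells, was at 6.52, 14.6 and 4.93 CPM in batch 1 knockout libraries, against 5.13 and 3.45 CPM in wildtype. Batch 2 gave 10.9 and 22.7 CPM in knockout libraries, against 10.8 and 16.9 CPM in wildtype. The genotypes overlapped in each batch, and the log2 fold change over both was 0.63 ± 0.38 (edgeR adjusted p = 1.00). The 10 CD8 T cell and NK cell markers summed to 56.9 and 79.4 CPM in batch 2 knockout libraries, against 71.6 and 116 CPM in wildtype. Of these, Ncr1, a defining NK cell gene, was at 0 to 0.53 CPM in batch 2. Nkg7 was at 11.3 and 34.8 CPM in batch 2 knockout libraries, against 21.1 and 52.9 CPM in wildtype. Klrb1c was at 3.04 to 6.44 CPM over the batch 2 libraries. Eomes was at 10.8 and 14.8 CPM in batch 2 knockout libraries, against 7.3 and 12 CPM in wildtype. In batch 1 the summed markers and Ncr1 overlapped between the genotypes. Nkg7, at 18.1 to 21.8 CPM, lay above wildtype in all knockout libraries of batch 1, as did 10.9% of all genes. Wildtype had 13.6 and 9.13 CPM. Eomes (12 to 24.2 against 9.12 and 8.93 CPM) and Klrb1c (4.13 to 5.99 against 3.1 and 2.84 CPM) did likewise. The part of these markers in the Klrg1 values was not tested.

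Of the secreted products, Il10 was near the limit of detection. It had 14, 12 and 5 counts in batch 1 knockout libraries, against 7 and 13 counts in wildtype. In batch 2 it had 18 and 55 counts in knockout libraries, against 0 and 30 counts in wildtype, where 3 counts correspond to 0.043 and 0.0666 CPM. In batch 1 its level of 0.62 to 2.64 CPM did not exceed the 95th percentile of the receptor genes of the same library, while the other 9 identity genes exceeded it in every library. The log2 fold change of Il10 over both batches was 0.37 ± 1.01, so its error exceeded the difference. Ebi3, the subunit shared by IL-27 and IL-35, was at 5.45, 7.35 and 7.3 CPM in batch 1 knockout libraries, against 5.22 and 6.09 CPM in wildtype. The batch 2 knockout libraries had 3.01 and 5.62 CPM, against 2.25 and 4.18 CPM in wildtype. The genotypes overlapped, and the log2 fold change of Ebi3 was 0.31 ± 0.34 over both batches (edgeR adjusted p = 1.00). It was 0.070 without wildtype replicate 3 and 0.096 without knockout replicate 5. The genes of its partner chains, Il27 and Il12a, had 0 counts in all 4 libraries of batch 2. In batch 1 Il27 had 5 to 14 counts in knockout libraries and 8 and 5 in wildtype, and Il12a had 5 to 9 in knockout libraries and 3 and 5 in wildtype.

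**Figure D2:**
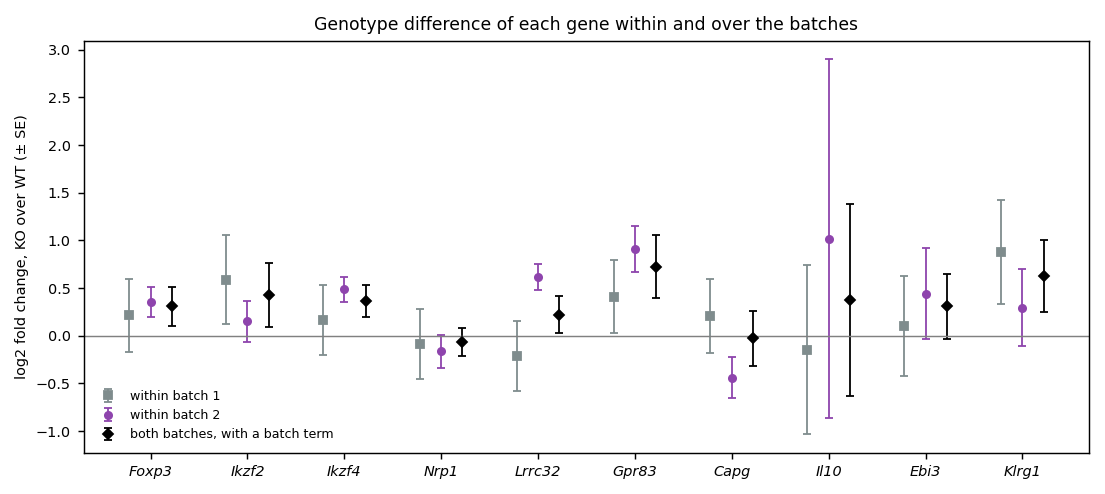
Log2 fold change of knockout over wildtype with its standard error (vertical axis) for each gene, from the fit within batch 1 (squares), within batch 2 (circles) and over both batches (diamonds). Lrrc32 at -0.21 and 0.61 and Capg at 0.21 and -0.44 take opposite signs in batches 1 and 2, and Il10 in batch 2 has the widest error.

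As a group, the identity genes were called 0 times of 10 by edgeR in batch 1, where 0.126% of 24600 genes were called, and 0 times in batch 2, where 0% of 15910 genes were called. The interaction of batch and genotype called 0 of the 10, against 0.00451% of all genes, and so did the fit over both batches, against 0.00451%. At an unadjusted p under 0.05 and higher in knockout, 3 of the 10 stood in batch 2 (Ikzf4, Lrrc32 and Gpr83), against 2.80% of all genes, and 0 in batch 1, against 1.34%. In either direction the share of all genes was 7.77% in batch 2 and 1.97% in batch 1. Higher over both batches stood 0 of the 10, against 1.19%, and 0 in the interaction, against 1.75% there and 8.36% in either direction. DESeq2 called 2 of the 10 in batch 2, both higher in knockout, where it called 2.07% of all genes and 0.377% as higher, and 0 over both batches, where it called 0.0721%. All knockout libraries lay above all wildtype libraries for 4 of the 10 genes in batch 2, where 19.6% of all genes did, and for 0 in batch 1, where 10.9% did. They lay below for 1 gene in batch 2, where 20.5% did, and for 0 in batch 1, where 5.19% did. The interaction was positive for 6 of the 10 genes, where 38.1% of all genes were. For 0 of the 10 genes did the knockout libraries lie above wildtype in both batches, against 2.00% of 15288 genes tested in both.

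The direction of the group rested on single libraries. In batch 1, 7 of 10 genes had a positive log2 fold change with a median of 0.19, where 53.8% of all genes were positive. Without knockout replicate 2, only 3 of 10 were positive and the median was -0.15. In batch 2, 8 of 10 were positive with a median of 0.40, where 47.8% of all genes were positive. Without knockout replicate 5, 4 of 10 were positive with a median of -0.084, and without wildtype replicate 3, 6 of 10 with a median of 0.057. Over both batches the count stayed between 7 and 10 of 10 in 8 of the 9 runs that each left out 1 library. In the run without knockout replicate 5 Il10 was not fitted, and 8 of 9 were positive. The median over both batches was 0.34 with all libraries, 0.13 without wildtype replicate 3 and 0.19 without knockout replicate 2. Among single genes in that fit, Klrg1 was at 0.32 without knockout replicate 2, Gpr83 at 0.43 without knockout replicate 3 and Ikzf4 at 0.23 without wildtype replicate 3. Without knockout replicate 3 and wildtype replicate 3, the libraries that stood apart, 8 of 10 were positive with a median of 0.29.

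Knockout replicate 2 was the highest library of batch 1 for 8 of the 10 genes and the lowest for Gpr83. Knockout replicate 5 was the highest of batch 2 for 7 genes, and wildtype replicate 3 the lowest of batch 2 for 7. Wildtype replicate 3 was likewise the lowest of batch 2 for Cd4, at 1152 CPM, and for the summed CD4 T cell markers, at 3650 CPM. The shares of all genes for which these libraries were highest or lowest were not counted. Whether this pattern is particular to the identity genes was therefore not tested. Knockout replicate 2 also held the highest summed conventional dendritic cell and B cell markers of batch 1. Its 10 conventional dendritic cell markers summed to 461 CPM, against 90.2 to 196 CPM in the other 4 libraries. Most of that sum was Cd74, at 364 CPM, against 41.6 to 146 CPM in those 4. Its 7 plasmacytoid dendritic cell markers summed to 139 CPM, the lowest of the batch, against 141 to 182 CPM in those 4. Its 9 matched B cell markers summed to 125 CPM, against 64.1 to 98.2 CPM in those 4. Their part in the levels of the identity genes was not tested.

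**Figure D3:**
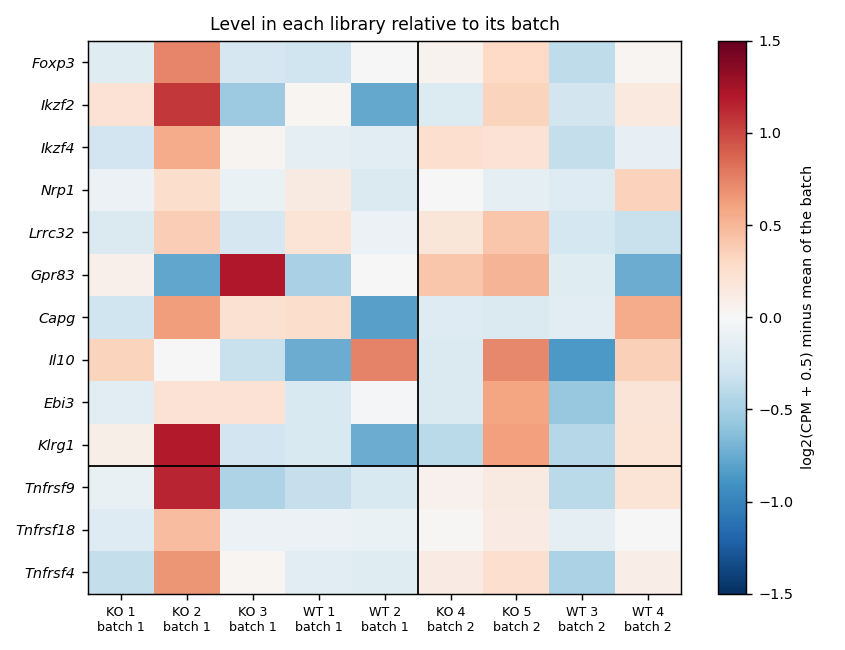
Log2(CPM + 0.5) of each gene in each library minus the mean of its batch (colour, red above and blue below), for the 10 identity genes and, under the line, 3 receptor genes whose pattern was among the closest to Foxp3. Knockout replicate 2 lies above the batch mean in 9 of the 10 identity genes, Il10 by the least, and wildtype replicate 3 lies below it in all 10.

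Expressed per Foxp3 count of the same library, the identity genes did not keep a fixed ratio. Gpr83 varied widely, at 0.246, 0.0712 and 0.564 counts per Foxp3 count in batch 1 knockout libraries, against 0.178 and 0.201 in wildtype. In batch 2 its ratio was 0.128 and 0.115 in knockout libraries, against 0.114 and 0.0566 in wildtype. Lrrc32 stood at 0.179 and 0.178 per Foxp3 count in batch 2 knockout libraries, against 0.177 and 0.126 in wildtype. So the ratio of Lrrc32 in 1 wildtype library nearly equalled that of the knockout libraries. Nrp1 was lower per Foxp3 count in batch 2, at 0.385 and 0.294 in knockout libraries, against 0.457 and 0.498 in wildtype. In batch 1 it overlapped, at 0.425, 0.289 and 0.443 in knockout libraries, against 0.537 and 0.340 in wildtype. Ikzf2 likewise stood at 0.404 and 0.493 in batch 2 knockout libraries, against 0.522 and 0.520 in wildtype. In batch 1 Ikzf2 stood at 0.724, 0.693 and 0.448 in knockout libraries, against 0.688 and 0.317 in wildtype, and the groups overlapped. Ikzf4 ran from 0.192 to 0.265 in batch 1 knockout libraries, against 0.191 and 0.241 in wildtype, and overlapped in batch 2 as well. These ratios carry no test.

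**Figure D4:**
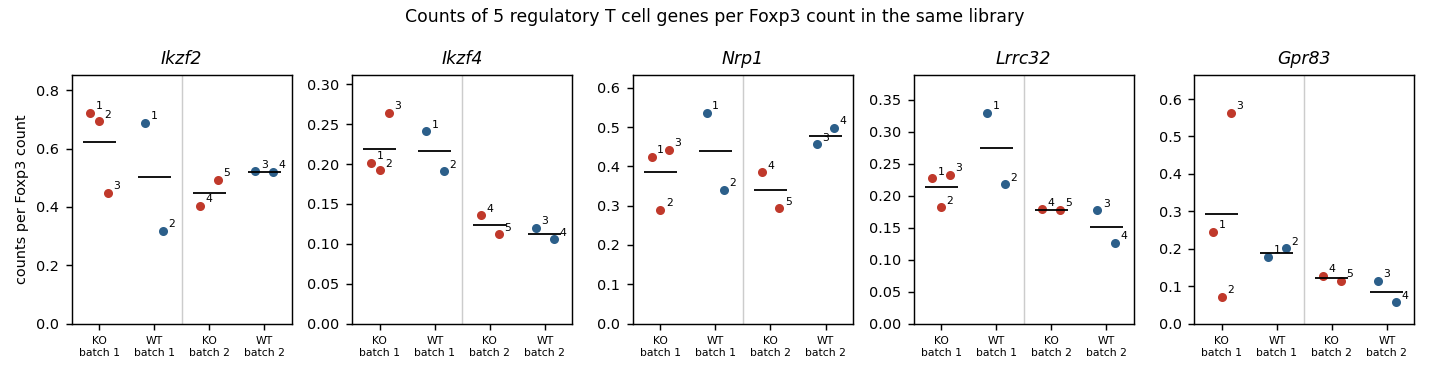
Counts of 5 genes per Foxp3 count of the same library (vertical axis, linear from 0), as points numbered by replicate with bars at the group mean. Nrp1 and Ikzf2 lie lower in both knockout libraries of batch 2 than in wildtype, and Gpr83 spreads from 0.0712 to 0.564 among the knockout libraries of batch 1.

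Likeness to Foxp3 was measured as the Pearson r of log2(CPM + 0.5), centred within each batch, over 9 libraries. It is a description without a test, since libraries share depth and composition. Among 12671 genes, and leaving out predicted genes and pseudogenes by name, the closest 5 were Tnfrsf9 (4-1BB, r = 0.938), Tnfrsf18 (GITR, r = 0.937), Rnf43 (r = 0.921), H2-Q4 (r = 0.905) and Tnfrsf4 (OX40, r = 0.901). Tnfrsf9 was at 15.3, 37 and 11.8 CPM in batch 1 knockout libraries, against 12.9 and 14 CPM in wildtype, and knockout replicate 2 stood alone. Batch 2 values overlapped, at 29.7 and 31.2 CPM in knockout libraries, against 21.2 and 32.7 CPM in wildtype. Of the identity genes, Ikzf4 (r = 0.859) and Klrg1 (r = 0.793) came closest, then Ikzf2 (r = 0.708), Lrrc32 (r = 0.664) and Ebi3 (r = 0.633). Nrp1 (r = 0.419) and Capg (r = 0.288) were less alike, and Gpr83 (r = -0.292) ran the other way. Il10 fell under the level of 1 CPM that the comparison required.

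Related gene lists were read beside the identity genes over both batches. In the 6 lists 0 genes passed, where 0.00451% of all genes did. Among 18 further regulatory T cell surface and signature genes, 11 were positive with a median log2 fold change of 0.13, and 3 had an unadjusted p under 0.05. Of all genes, 51.4% were positive and 2.36% had such a p. Izumo1r (folate receptor 4) was at 96.4, 125 and 119.7 CPM in batch 1 knockout libraries, against 90.2 and 86.7 CPM in wildtype. Batch 2 gave 195 and 179 CPM in knockout libraries, against 117 and 120.03 CPM in wildtype. Its log2 fold change was 0.47 ± 0.12, that of Plagl1, a zinc finger factor, 0.66 ± 0.28, and that of Rgs1, which dampens chemokine receptor signals, -0.77 ± 0.29. Each had an edgeR adjusted p of 1.00.

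Of 12 suppressive molecules, 9 were positive with a median of 0.11, and 3 had an unadjusted p under 0.05, against 51.4% and 2.36% of all genes. Itgb8, the integrin chain that frees TGF-β from GARP, was at 10.6, 16.8 and 13.8 CPM in batch 1 knockout libraries, against 6.2 and 7.92 CPM in wildtype. Batch 2 values were 8.14 and 11.1 CPM in knockout libraries, against 4.85 and 7.15 CPM in wildtype. Itgb8 (0.81 ± 0.24), Nt5e (CD73, 0.59 ± 0.13) and Entpd1 (CD39, 0.62 ± 0.28) had the smallest p of this list, with an edgeR adjusted p of 1.00 each. Tgfb1, the ligand held by GARP, was at 193 to 233 CPM in batch 1 knockout libraries, against 182 and 191 CPM in wildtype, and overlapped in batch 2. Of the 80 genes in the 6 lists that were tested in both batches, 3 lay above wildtype in all knockout libraries of both. These were Izumo1r, Itgb8 and Nt5e. Only 1 of the 80, Rgs1, lay below. Of all 15288 genes tested in both batches, 2.00% lay above and 1.07% below.

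Of 19 genes that induce or keep Foxp3 expression 11 were positive with a median of 0.018, and the smallest p belonged to Tgfbr1 (-0.16 ± 0.15), Smad2 (-0.10 ± 0.10) and Runx1 (-0.09 ± 0.10). Of 10 tested genes that Foxp3 lowers 3 were positive with a median of -0.05, with Cd40lg at -0.41 ± 0.20 and Satb1 at -0.29 ± 0.15. Satb1, a chromatin organiser, was at 1083, 874 and 914 CPM in batch 1 knockout libraries, against 1431 and 1418 CPM in wildtype. The batch 2 knockout libraries had 1151 and 1070.4 CPM, against 999.8 and 1067 CPM in wildtype. All 3 knockout libraries of batch 1 lay below wildtype and both of batch 2 above it, and the interaction of batch and genotype for Satb1, 0.71 ± 0.23, did not pass (edgeR adjusted p = 0.507). Of the genes that Foxp3 lowers, 0 of 10 tested were positive in batch 1 with a median of -0.33, where 53.8% of all genes were positive. In batch 2, 8 of 11 were positive with a median of 0.11, where 47.8% of all genes were. Of the CD4 T cell markers, of which 0 passed, 1 of 7 was positive in batch 1 and 7 of 7 were in batch 2. They summed to 2993 to 3112 CPM in batch 1 knockout libraries and 3371 and 3590 CPM in wildtype, and to 4243 and 4238 CPM in batch 2 knockout libraries and 3650 and 3985 CPM in wildtype. Their part in the values of that list was not tested. Of 10 effector and Il10 regulators 3 were positive with a median of -0.07, and the smallest p belonged to Myb (-0.32 ± 0.20), Ahr (-0.33 ± 0.22) and Bach2 (0.17 ± 0.14). Of 14 tested receptor partners, ligands and relatives of the identity genes 9 were positive with a median of 0.026, with Il27ra at 0.26 ± 0.12, Il10ra at 0.30 ± 0.16 and Nrros, a relative of GARP, at 0.30 ± 0.16.

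**Figure D5:**
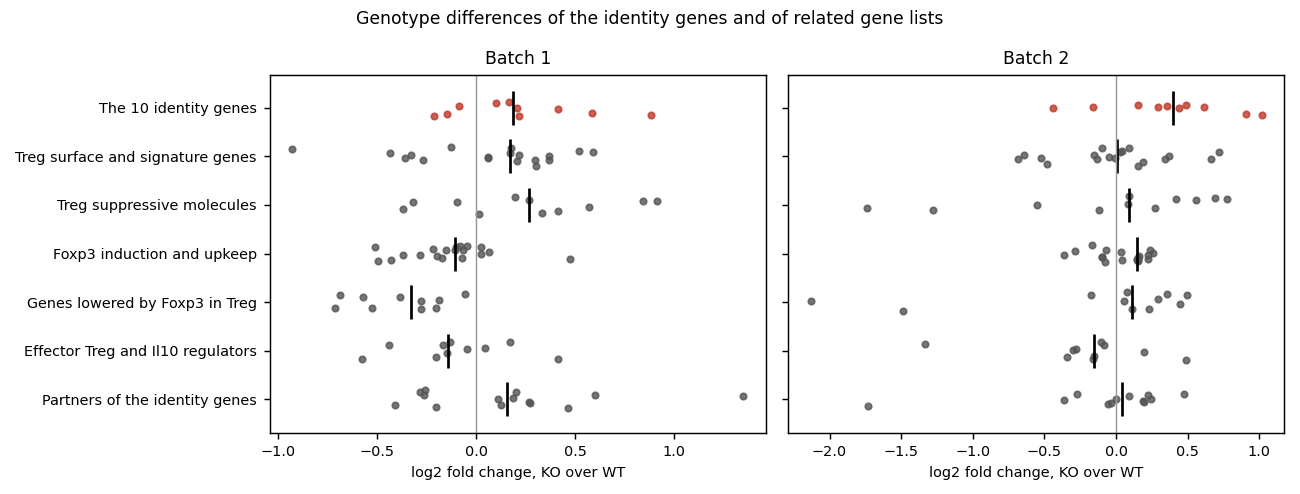
Log2 fold change of knockout over wildtype (horizontal axis) within batch 1 and within batch 2, with 1 point per tested gene and a bar at the median of each list. The identity genes (red) have medians of 0.19 and 0.40, and the genes lowered by Foxp3 lie below 0 in batch 1 and mostly above 0 in batch 2.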

How the data were processed

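RNA of 9 CD4+ T cell samples, labelled as 2 batches, was sequenced. The authors deposited 1 table of estimated counts per gene, which are not whole numbers. Per the submitters' processing notes, Salmon 1.2.0, R 4.0.3 and GRCm39 were used, with no role stated. The annotation release, strand setting and summing of transcripts to genes were not given in the sources used here. Counts were rounded to whole numbers. Genes were kept by edgeR's filterByExpr (minimum count 10, minimum total 15, by genotype), scaled by TMM and tested with edgeR 4.0.16's robust quasi-likelihood test in R 4.3.3: over both batches with batch as a term, within each batch, and for the interaction. P-values were adjusted over all genes tested (Benjamini-Hochberg, threshold 0.05). CPM values divide by the library total, and log values add 0.5 CPM. Alternatives used DESeq2 1.42.0, other scalings and filters, a replicate block and leaving out libraries, including knockout replicate 3 with wildtype replicate 3, a choice made after seeing the data. Floors of 3 counts cover counting error only. Totals ran from 4926347 to 69844721 counts.

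The identity genes and the lists were chosen with earlier results of these data known. All 10 identity genes are named. From each of 6 companion lists, genes past the threshold are named, or otherwise the 3 with the smallest unadjusted p over both batches. A gene that this rule names is not reported here. The 5 genes closest to Foxp3 are named by r. Genes whose levels stand beside a result are further names, not chosen by that rule. They are Esr1, Xist, Ddx3y, Cd4, Cd3e, C1qa, Cd74, Ncr1, Nkg7, Klrb1c, Eomes, Alas2, Tgfb1, Il27 and Il12a. Markers of 11 cell types are given by summed level. In the marker lists 7 of 10 CD4 T cell genes and 9 of 10 B cell genes matched the table. Tables and figures were made with Python 3.11.15.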

Additional observations from a re-analysis of the deposited data

How the results depend on the processing

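Over both batches 1 gene, not an identity gene, passed; the count was 16 with DESeq2, 2 with no low-count filter, 0 without the batch term, 1 with the replicate block and 0 to 3 without 1 library. In batch 1, 31 passed (18 higher, 13 lower), against 6 with upper-quartile scaling (1 higher, 5 lower), 68 with no filter and 33 to 118 without 1 library. DESeq2 called 16 higher and 16 lower there, and over all genes tested the median change (log2) stood at 0.042 with TMM, -0.084 with DESeq2 and 0.11 with upper-quartile scaling. In batch 2, 0 passed (1237 at an unadjusted p under 0.05), against 329 with DESeq2, 34 with no filter and 0 to 879 without 1 library. The interaction called 1 gene, against 165 with DESeq2, 2 with no filter and 1 to 238 without 1 library. The cause of these differences was not tested. Lrrc32 (0.61) and Gpr83 (0.91) were called in batch 2 by DESeq2.

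With the replicate block, Il10 (-0.27) and Ebi3 (-0.058) changed sign over both batches, and so did Ebi3 in batch 1 with DESeq2 (-0.026). The block left 6 of 10 identity genes positive. Replicate numbers were not taken as pairs in the main fits. Deviations of same-numbered libraries correlated at 0.338, -0.37, -0.0695 and -0.0487 for numbers 1 to 4. These values cannot settle whether samples were paired. In a group of 2 libraries the deviations from the group mean mirror each other, and number 3 joins libraries of different batches. Leaving out 1 library over both batches, log2 fold changes spanned -0.30 to 0.040 for Nrp1, -0.43 to 0.18 for Capg and -0.13 to 1.05 for Il10. In batch 1 they spanned -0.25 to 0.45 for Foxp3, -0.18 to 0.35 for Ikzf4, -0.41 to 0.29 for Nrp1, -0.51 to 0.13 for Lrrc32, -0.072 to 0.75 for Gpr83, -0.36 to 1.09 for Capg, -0.82 to 0.89 for Il10 and -0.035 to 0.20 for Ebi3. In batch 2 they spanned -0.14 to 0.40 for Ikzf2, -0.38 to 0.083 for Nrp1, -0.16 to 8.32 for Il10, -0.077 to 0.90 for Ebi3 and -0.33 to 0.73 for Klrg1. For the interaction they spanned -0.15 to 0.50 for Foxp3, -1.19 to 0.013 for Ikzf2, -0.53 to 0.22 for Nrp1, -0.0050 to 0.94 for Gpr83 and -0.30 to 0.70 for Ebi3. A wildtype arm of 1 library within a batch is assumed to vary like the knockout. Of 456 alternative values for the identity genes 412 kept direction and side of the threshold, 39 changed sign and 5 newly passed. Il10 could not be fitted without knockout replicate 5 over both batches and in the interaction, without knockout replicate 1 in batch 1, nor in batch 2 with a filter of 1 CPM. In batch 1 a level of 3 counts, the floor, was 0.266 to 0.609 CPM.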

Other observations

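Summed levels of the marker lists not given above were as follows. The 10 neutrophil markers summed to 809 to 1305 CPM in batch 1 knockout libraries and 342 to 1018 CPM in wildtype. In batch 2 they summed to 6.94 and 10.6 CPM in knockout libraries, against 239 and 27.3 CPM in wildtype. The 6 erythroid markers summed to 141 and 129.98 CPM in batch 2 knockout libraries, against 1820 and 96.9 CPM in wildtype, with wildtype replicate 3 the high one. The 5 plasma cell markers summed to 7.0 and 5.09 CPM in batch 2 knockout libraries, against 43.0 and 3.82 CPM in wildtype. The 7 plasmacytoid dendritic cell markers summed to 139 to 182 CPM in batch 1 knockout libraries and 144 and 148 CPM in wildtype, and to 124 and 136 CPM in batch 2 knockout libraries and 126 and 131 CPM in wildtype. The 10 endothelial and stromal markers summed to 196 and 192 CPM in batch 2 knockout libraries, against 166 and 160.4 CPM in wildtype, with 6 and 7 of the 10 at 0 in knockout and 6 and 3 in wildtype. Their part in the values of the identity genes was not tested. In Dixon's test of the 10 identity genes within the 5 knockout and the 4 wildtype libraries, 0 of 20 groups had a library past the critical value. Each group pooled both batches, so the test cannot show whether a library stood apart within its batch.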
